A study of Arabidopsis thaliana with 9 samples.

Results

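Transcripts of the chloroplast genome were followed through salt stress in leaves of Arabidopsis thaliana. The members are all rows whose locus identifier starts with ATCG, the prefix of chloroplast loci, which gave 91 of the 21176 rows in the table. RNA came from rosette leaves of Col-0 plants, aged 5 weeks and grown in water culture. Control plants received no salt. Phase 0 leaves were cut 1 h after NaCl was applied at 105 mM in a shock, and Phase 1 leaves 2 days after the end of a stepwise rise, by 15 mM each day, to 90 mM NaCl. Each group has 3 libraries, 9 in all. The phases thus differ in the dose, the duration and the mode of salt treatment at once. Neither the hour of harvest nor the origin of replicates from separate plants is stated in the labels, so p values measure the spread between these libraries, which may be technical.

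The chloroplast genome is a circular remnant of the genome of a cyanobacterial ancestor and encodes subunits of the photosystems, the cytochrome b6f complex, ATP synthase, Rubisco and the NADH dehydrogenase-like complex, together with parts of the transcription and translation machinery. It is transcribed by a bacterial-type polymerase, whose core is encoded in the plastid and whose sigma factors and associated proteins are encoded in the nucleus, and by a phage-type polymerase encoded in the nucleus. Nuclear-encoded RNA-binding proteins and ribonucleases then process and stabilise or degrade the transcripts. Chloroplast transcripts do not carry the stable poly(A) tail of nuclear messenger RNA, and the libraries were prepared with an mRNA kit that selects poly(A) RNA. The values below are thus levels in selected RNA, and the level in leaf RNA before selection was not measured.

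The deposited file gives locus identifiers only. Of the 91 loci, 6 were named in notes of the RefSeq annotation, and the other loci are given by identifier. The named loci described here are ATCG00670 (clpP, the plastid-encoded proteolytic subunit of the Clp protease of the stroma), ATCG00530 (cemA, an inner envelope protein related to a cyanobacterial protein of proton extrusion), ATCG00660 (rpl20, a protein of the large subunit of the plastid ribosome), ATCG00420 (NADH dehydrogenase subunit J) and ATCG00430 (annotated as photosystem II reaction center protein G, a product since recognised as a subunit of the NADH dehydrogenase-like complex). Some chloroplast loci lie in the inverted repeat or have copies in the nuclear genome, and others overlap. How reads with several matches and reads from the other strand were counted is not given in the sources used here, so a value can hold reads of a copy or of a neighbour.

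Levels are normalised counts, that is, reads scaled by the authors to make libraries comparable. A member was tested when its mean over the 9 libraries was at least 10. This held for 75 members, of which 13 passed only through Phase 0 replicate 2 and 62 also had that mean over the other 8 libraries. The 16 members not tested had means of 0.889 to 9.89. Fold changes of a gene are those of log2(normalised count + 1), and so can differ slightly from the ratio of the printed means. Adjusted p values come from limma with Benjamini-Hochberg adjustment over all 18650 genes tested, with a threshold of 0.05. Totals per library ran from 22786946 to 27820610 normalised counts. In the 7 libraries where the spacing of low values gave the number of reads, 3 reads correspond to 2.75 to 3.96 normalised counts, a floor that covers counting error only. The leaf label matches the markers: 10 of 10 mesophyll and photosynthesis genes were present, at sums of 1345589 to 2491810 per library, against 10 to 52 for the 2 of 5 root genes and 16 to 37 for the 1 of 4 flower genes that the table lists.

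The chloroplast-encoded sum was a small part of every library and stood far apart in Phase 0 replicate 2. In the control libraries the 91 loci held 0.0345%, 0.0364% and 0.0408% of all normalised counts. In the Phase 0 libraries they held 0.0464%, 0.490% and 0.0438%, and in the Phase 1 libraries 0.0482%, 0.0465% and 0.0418%. All 6 libraries under salt lay above all 3 controls in this share. The mean share was 0.0372% ± 0.0032 in control, 0.193% ± 0.257 in Phase 0 and 0.0455% ± 0.0033 in Phase 1 (SD, n = 3 each). Without Phase 0 replicate 2, the Phase 0 mean was 0.0451% ± 0.0018 (SD, n = 2).

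Phase 1 exceeded control 1.22-fold in this share, with groups that did not overlap (exact permutation test, two-sided, p = 0.1, the smallest that 3 against 3 libraries can give). The normalised sums themselves overlapped, at 12304, 10589 and 10131 in Phase 1 and 9583, 9402 and 10529 in control. Library totals, by which the share divides, were 22786946 to 25522714 in Phase 1 and 25801397 to 27820610 in control. In the share, Phase 0 exceeded control 5.20-fold with all libraries (exact p = 0.1) and 1.21-fold without replicate 2 (exact p = 0.2, the smallest for 2 against 3). Between the phases the direction turned on that library. The Phase 1 mean was lower than that of Phase 0 by 0.148 percentage points with it (difference -0.148, exact p = 0.6) and higher by 0.000375 without it (exact p = 1.0). In leaf RNA of mixed cells, a change in the number of cells of a type cannot be told apart from a change in RNA per cell.

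Other kinds of RNA that lack a stable poly(A) tail differed from each other in Phase 0 replicate 2. Mitochondrial loci and a nuclear rRNA locus moved with the chloroplast share, while nuclear tRNA, snRNA and snoRNA did not. The 31 mitochondrial loci held 0.115% of it and 0.00488% to 0.0110% of the others. The nuclear rRNA locus AT3G41768 stood at 71150 normalised counts there and at 1573 to 2602 elsewhere. Sums over other small RNA did not stand apart. Those over 21 nuclear tRNA rows, 15 snRNA rows and 108 snoRNA rows of that library lay at 72, 335 and 1526, against 55 to 111, 141 to 458 and 926 to 1659 in the others. In Phase 1 the mitochondrial loci held 0.0091%, 0.011% and 0.0070%, against 0.0092%, 0.0050% and 0.0067% in control. AT3G41768 counted 2595, 2602 and 1971 in Phase 1 and 2275, 1574 and 2061 in control. Phase 1 and control overlapped in both. The part of these RNAs in the chloroplast values was not tested.

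**Figure D1:**
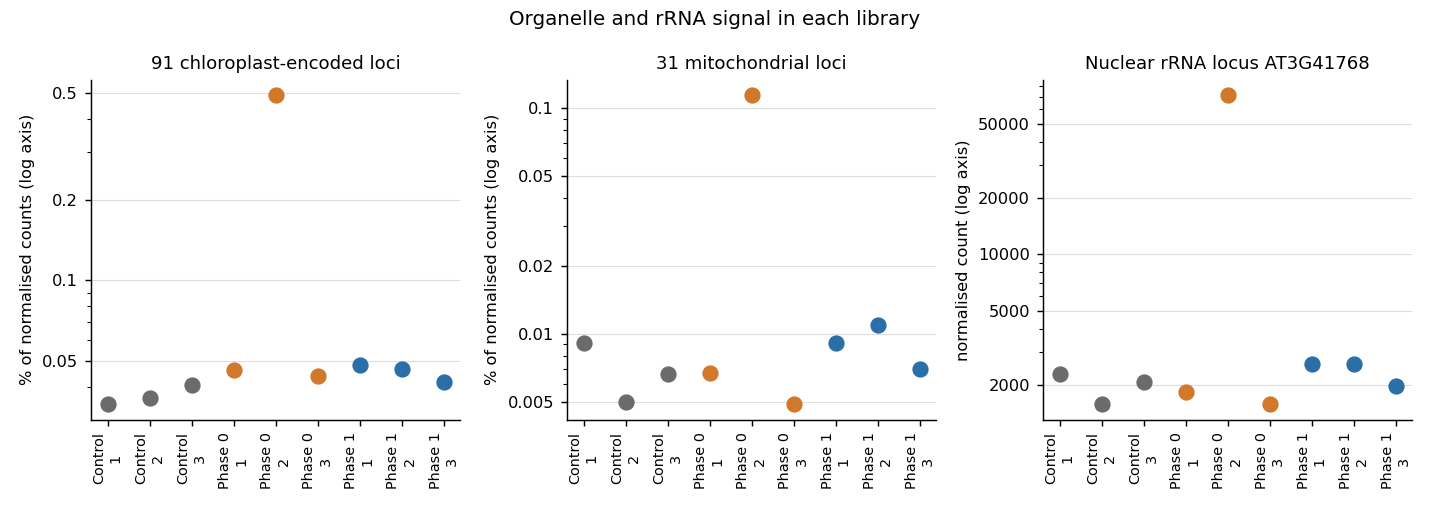
Share of all normalised counts held by the 91 chloroplast-encoded loci (left) and the 31 mitochondrial loci (middle), in percent, and the normalised count of the nuclear rRNA locus AT3G41768 (right), on log axes, with 1 point per library (grey control, orange Phase 0, blue Phase 1). Phase 0 replicate 2 lies at 0.490%, 0.115% and 71150, above every other library in all 3 panels.

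A few loci supplied most of the chloroplast-encoded sum. The 10 highest members held 64.4% to 71.2% of it in the 8 libraries other than Phase 0 replicate 2. The leading locus varied: ATCG00020 led in Control replicates 1 and 3 and Phase 1 replicates 1 and 2, ATCG00480 in Control replicate 2 and Phase 0 replicates 1 and 3, and ATCG00190 in Phase 1 replicate 3. ATCG00020 counted 1853, 1019 and 1433 in control, 1424 and 1246 in Phase 0 replicates 1 and 3, and 2068, 1864 and 1116 in Phase 1. The 3 groups overlapped at this locus. ATCG00480 counted 669, 1514 and 1401 in control, 1456 and 1456 in the same Phase 0 libraries, and 1091, 809 and 936 in Phase 1, where every library was below every Phase 0 library.

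In Phase 0 replicate 2 the make-up of the sum differed. ATCG00020 reached 54027 normalised counts and 43.2% of the sum, against 10.8% to 19.3% elsewhere. ATCG00490 reached 22405 and 17.9%, against 622 to 1135 and 6.14% to 10.1% elsewhere. ATCG00480, at 2728, held a smaller part, 2.18% against 6.98% to 16.1%. Of the amount by which this library's sum exceeded the mean of the other Phase 0 libraries, ATCG00020 supplied 46.2% and ATCG00490 19.0%. Ranks of 62 members correlated at Spearman values of 0.806 to 0.967 between pairs of the other 8 libraries and of 0.689 to 0.769 with this one, a description across loci, which are not independent replicates.

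**Figure D2:**
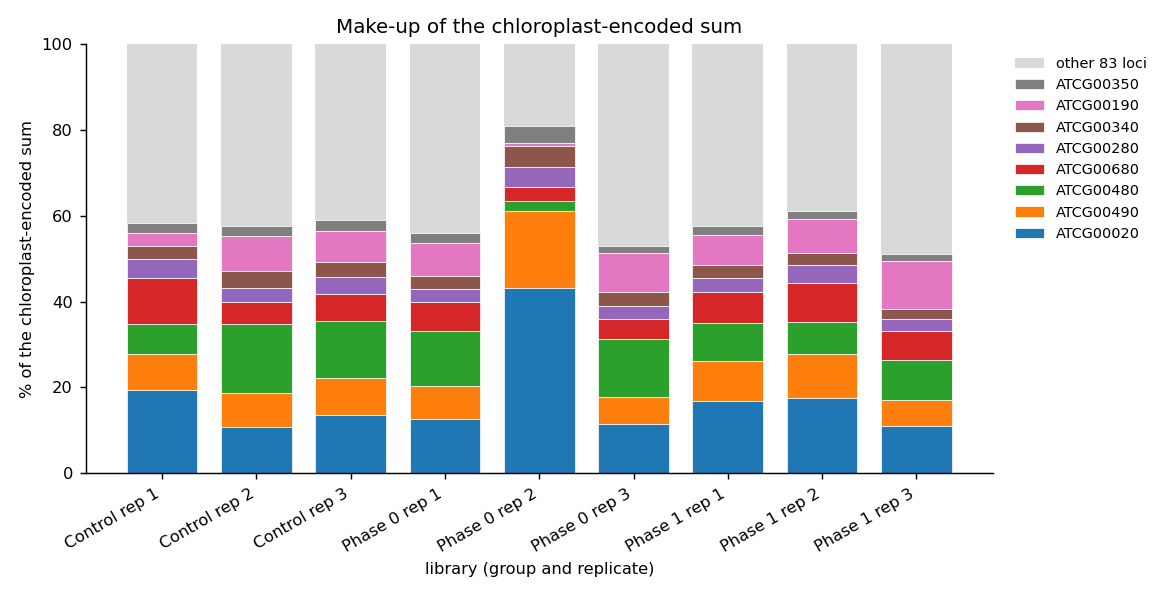
Stacked bars of the percent of the chloroplast-encoded sum held by the 8 loci with the highest means and by the other 83 together, per library. ATCG00020 and ATCG00490 fill 43.2% and 17.9% of Phase 0 replicate 2, more than in any other library, while ATCG00480 and ATCG00190 fill less.

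The excess in Phase 0 replicate 2 was broad but uneven over the members. Relative to the mean of Phase 0 replicates 1 and 3, the sum was 11.3 times as high, and 5.42 times without ATCG00020 and ATCG00490. Of the 62 members whose mean over the other 8 libraries was at least 10, 48 were over 2 times as high, 12 lay between 1 and 2 times, and 2 were lower. The quartiles of their ratio were 2.64, 5.26 and 12.1, against a median of 0.998 (5th to 95th percentile 0.663 to 1.44) over 18209 nuclear protein-coding genes. Over 12 mitochondrial loci with such a mean it ran from 1.18 to 24.3, with a median of 6.40. In all, 84 of the 91 members had their highest value in this library.

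At the upper end stood ATCG00020 at 40.5 times, ATCG01080 at 29.6, ATCG00490 at 29.0 and ATCG00570 at 25.5. Levels of ATCG01080 and ATCG00570 were low elsewhere, with means of 5.50 and 9.75 over the other 8 libraries. Both were tested only through their values in Phase 0 replicate 2, so a high ratio was partly a condition of entry. ATCG00340, ATCG00280 and ATCG00350, at 328, 364 and 224 in those libraries, reached 5945, 6018 and 4969. At the lower end, ATCG00010 counted 31 against 74 and 39 in the other Phase 0 libraries, ATCG00090 counted 102 against 164 and 90, ATCG00190 counted 956 against 854 and 982, and ATCG00810 counted 139 against 113 and 115. For ATCG00090, ATCG00190 and ATCG00810, the value of replicate 2 thus lay within or near the other Phase 0 values. The named loci lay between these ends. clpP and cemA had ratios of 1.80 and 1.81, rpl20 3.11, NADH dehydrogenase subunit J 3.56 and ATCG00430 5.18. The ratio is not set by level alone: ATCG00020 and ATCG00190 were both among the highest members and had ratios of 40.5 and 1.04.

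**Figure D3:**
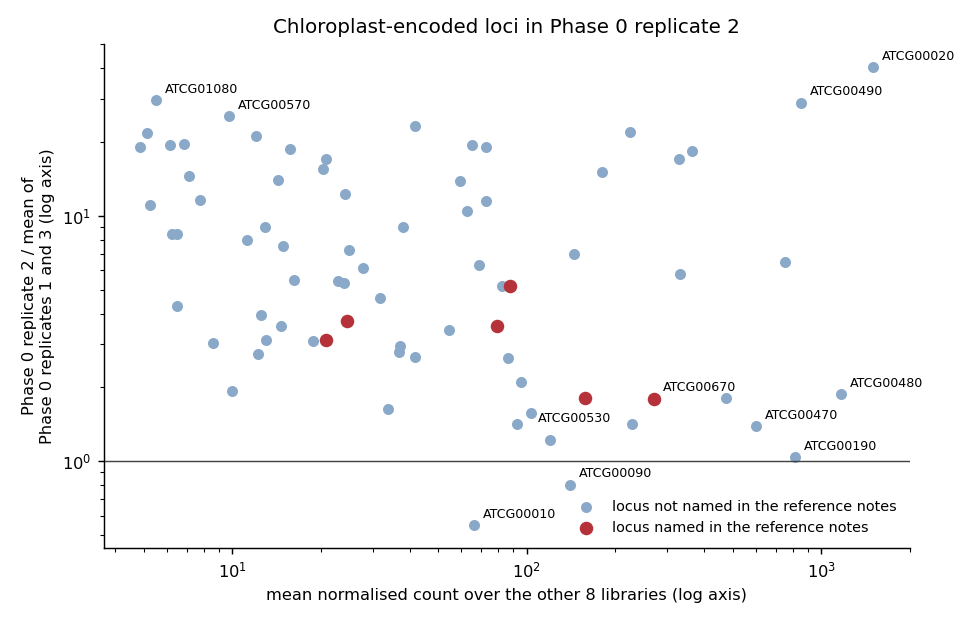
Each point is 1 of the 75 tested chloroplast-encoded loci, with its mean normalised count over the other 8 libraries (x, log axis) against its value in Phase 0 replicate 2 divided by the mean of Phase 0 replicates 1 and 3 (y, log axis), and the line marks a ratio of 1. Ratios run from 0.549 (ATCG00010) to 40.5 (ATCG00020), both among the 62 loci with a mean of at least 10 over those 8 libraries. The other 13 loci were tested only through Phase 0 replicate 2, so high ratios at low levels are partly set by the filter.

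Control replicate 1 differed from the other controls in the balance between members. Over the 33 members with a mean of at least 50 in the 8 libraries, its ratio to the mean of Control replicates 2 and 3 had a median of 1.06 and ran from 0.0914 to 2.54, and 7 members were at 0.5 or lower. ATCG00180 counted 9 there against 154 and 43, ATCG00780 counted 30 against 109 and 96, and ATCG00190 counted 286 against 762 and 778. ATCG00010 counted 108 against 36 and 49, and ATCG00680 counted 1038 against 481 and 659. Nuclear genes in this library moved with gene length: those with a span of up to 1779 bases had a median log2 ratio of 0.30, and those of at least 3397 bases had -0.34. Its part in the chloroplast values was not tested.

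The comparison of Phase 0 with control asks what had changed 1 h after the shock. With all libraries, 0 of the 75 tested members passed the threshold, beside 2.93% of all genes tested. At an unadjusted p under 0.05 stood 20 members. The share of all genes at that unadjusted p was not counted, so such counts have no background here or below. The median log2 fold change was 1.17 over the 75 members and 1.18 over the 62 tested without the help of Phase 0 replicate 2, against 0.01 over all genes. Without Phase 0 replicate 2, 0 of those 62 passed, beside 0.982% of all genes, and their median was 0.30. Of them, 2 stood at an unadjusted p under 0.05. Most of the distance between Phase 0 and control in the members was therefore carried by 1 library, while a smaller difference in the same direction was present in replicates 1 and 3.

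Of the same 62 members, 14 were higher in every Phase 0 library than in every control with all libraries, beside 11.1% of all genes, and 14 without replicate 2, beside 14.6%. Lower in the same sense were 0 with all libraries (12.1% of all genes) and 1 without replicate 2 (14.9%). cemA (ATCG00530) counted 120, 109 and 110 in control, 215, 368 and 192 in Phase 0, and 222, 99 and 190 in Phase 1. All Phase 0 values exceeded all controls, and Phase 1 replicate 2 lay below both. Its level was 2.18-fold higher in Phase 0 (log2 fold change 1.13, SE 0.31, adjusted p = 0.0884), and 1.79-fold without replicate 2 (adjusted p = 0.284). It was past the threshold when Phase 1 replicate 2 was left out of the shared fit.

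ATCG00630 behaved in a like way, with 443, 331 and 375 in control and 584, 1149 and 684 in Phase 0 (log2 fold change 1.02, SE 0.32, adjusted p = 0.119, and 0.73 without replicate 2, adjusted p = 0.361). The ribosomal transcript rpl20 counted 12, 17 and 22 in control and 30, 84 and 24 in Phase 0, groups that did not overlap (adjusted p = 0.194). The NADH dehydrogenase-like transcripts that could be named did not separate. Subunit J counted 87, 56 and 64 in control and 75, 265 and 74 in Phase 0, and ATCG00430 counted 81, 56 and 86 against 66, 378 and 80. Without replicate 2 their log2 fold changes were 0.13 and -0.01. ATCG00190 counted 286, 762 and 778 in control and 854, 956 and 982 in Phase 0, so its distance from control rested mainly on Control replicate 1 (adjusted p = 0.247).

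The comparison of Phase 1 with control asks what differed in leaves after days under salt. Of the 75 tested members 2 were higher, clpP and ATCG00790, and 1 was lower, ATCG00470, beside 36.1% of all genes tested (17.4% higher and 18.6% lower). The same 3 members passed without Phase 0 replicate 2, beside 33.6% of all genes. The median log2 fold change of the members was 0.28, against 0.00 over all genes. Above 0 lay 55 of the 75, beside 9390 of all 18650 genes, and 50 of the 62 tested without the help of Phase 0 replicate 2. With Control replicate 1 left out, the median was 0.19 and 51 of 76 members lay above 0, beside 9249 of 18679 genes. Of the 62 members, 11 were higher in every Phase 1 library than in every control and 1 was lower, beside 23.7% and 23.7% of all genes.

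clpP (ATCG00670) counted 186, 203 and 249 in control, 240, 432 and 240 in Phase 0, and 342, 338 and 358 in Phase 1. The Phase 1 libraries lay close together and above all controls. Its mean was 213 ± 32.6 in control and 346 ± 10.6 in Phase 1 (SD, n = 3). The log2 fold change was 0.71, or 1.64-fold (SE 0.22, adjusted p = 0.0307, and 0.00621 without Phase 0 replicate 2). Per kilobase of coding sequence its level was 360 normalised counts in control and 585 in Phase 1, where that of cemA was 164 and 247. The call was lost without Control replicate 1 or 2 and without any 1 of the Phase 1 libraries, at adjusted p values of 0.0661 to 0.0777. It was also lost with values scaled to the chloroplast-encoded total, but not when Phase 0 replicate 2 was left out of that scaling.

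ATCG00790 counted 143, 170 and 222 in control, 204, 303 and 222 in Phase 0, and 277, 310 and 279 in Phase 1. The Phase 1 values again exceeded every control. The mean was 178 ± 40.2 in control and 289 ± 18.5 in Phase 1 (SD, n = 3), a 1.64-fold rise (log2 fold change 0.71, SE 0.20, adjusted p = 0.0183, and 0.0147 without Phase 0 replicate 2). The call was lost when Phase 1 replicate 2 was left out (adjusted p = 0.0610). It was also lost with values scaled to the chloroplast-encoded total, both with and without Phase 0 replicate 2.

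ATCG00470 counted 797, 599 and 670 in control, 790, 972 and 609 in Phase 0, and 534, 354 and 460 in Phase 1, which was the lowest group with no overlap. The mean was 689 ± 100 in control and 449 ± 90.5 in Phase 1 (SD, n = 3), a 1.54-fold fall (log2 fold change -0.63, SE 0.20, adjusted p = 0.0358, and 0.0306 without Phase 0 replicate 2). Against control the call was lost without Control replicate 1 or 3, without Phase 0 replicate 1 and without Phase 1 replicate 2 or 3, at adjusted p values of 0.0517 to 0.130, and without Control replicate 1 and Phase 0 replicate 2 together (0.0692). It was also lost without limma's trend option (adjusted p = 0.0538) and with values scaled to the nuclear total (0.0578) or to the chloroplast-encoded total (1.0).

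**Figure D4:**
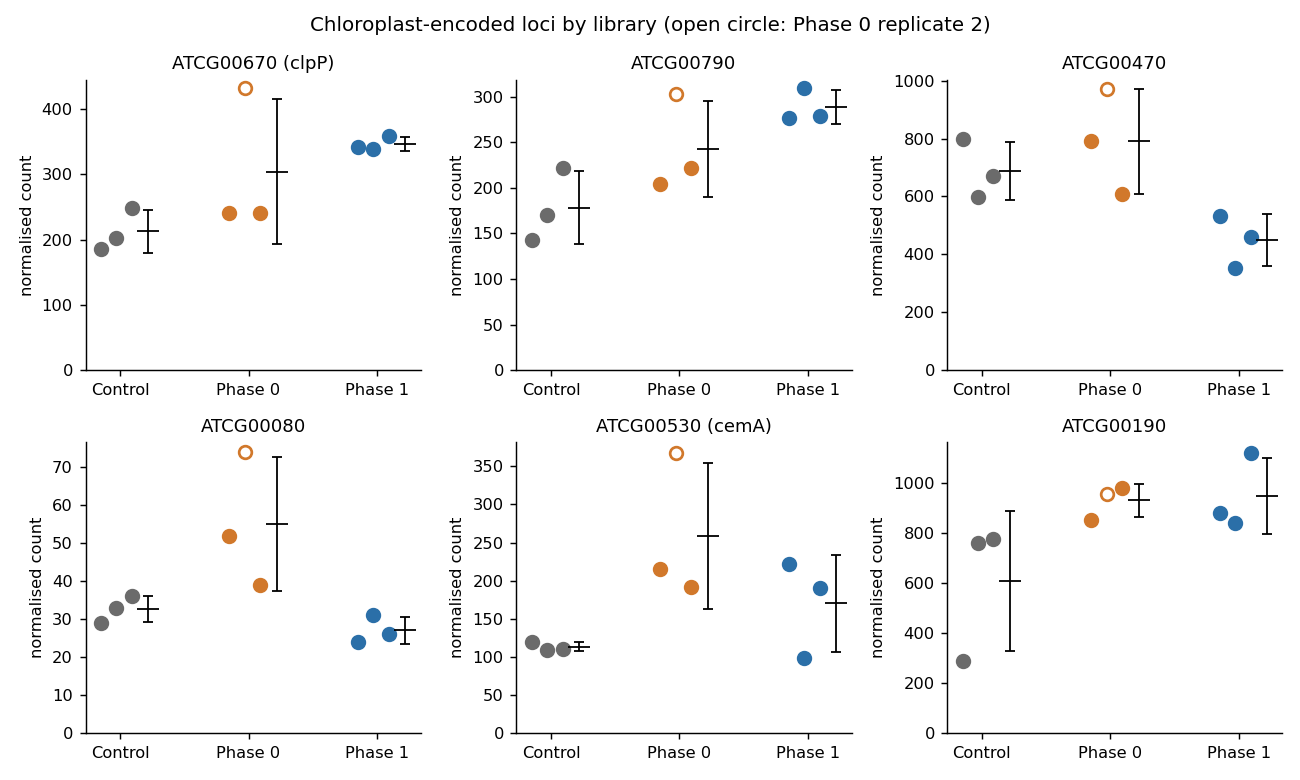
Normalised counts of 6 chloroplast-encoded loci by library, with points coloured by group, Phase 0 replicate 2 as an open circle, and the mean ± SD of the 3 libraries (replicate 2 included) as a bar beside them. clpP and ATCG00790 lie higher and ATCG00470 lower in all Phase 1 libraries than in all controls. The spread of cemA and clpP in Phase 0 comes mostly from replicate 2, while ATCG00080, at 52, 74 and 39, differs between all 3 libraries.

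The other named loci described here did not pass the threshold in Phase 1. ATCG00430 counted 133, 91 and 108, above every control, at a log2 fold change of 0.57 (adjusted p = 0.433, and 0.0902 without Phase 0 replicate 2). NADH dehydrogenase subunit J counted 97, 98 and 81 in Phase 1, which overlapped control (log2 fold change 0.43, adjusted p = 0.462). rpl20 counted 16, 26 and 20, which overlapped control (log2 fold change 0.28, adjusted p = 0.664). ATCG00020 and ATCG00490, the 2 highest members in Phase 0 replicate 2, overlapped control in Phase 1: ATCG00020 had a log2 fold change of 0.22 (adjusted p = 0.897) and ATCG00490, at 801, 729 and 904 in control and 1135, 1068 and 622 in Phase 1, had 0.17 (adjusted p = 0.913). Since the spread of both in the shared fit includes Phase 0 replicate 2, their adjusted p values without it are also given, at 0.546 and 0.580. ATCG01020, at 85, 39 and 73 in control and 113, 99 and 104 in Phase 1, was 1.67-fold higher (adjusted p = 0.101).

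Phase 1 and Phase 0 were also compared directly. These comparisons share libraries, so they are not independent of each other. With all libraries 2 of the 75 members were lower in Phase 1, ATCG00470 and ATCG00080, and 0 were higher, beside 28.1% of all genes tested (13.7% higher and 14.4% lower). ATCG00470 was 1.75-fold lower than in Phase 0 (log2 fold change -0.81, SE 0.20, adjusted p = 0.0144), and missed the threshold without Phase 0 replicate 2 (-0.65, adjusted p = 0.0637) or without Phase 1 replicate 2 (adjusted p = 0.0571). ATCG00080 counted 29, 33 and 36 in control, 52, 74 and 39 in Phase 0, and 24, 31 and 26 in Phase 1. Every Phase 0 value of ATCG00080 exceeded every value of the other groups. It was 1.95-fold lower in Phase 1 than in Phase 0 (log2 fold change -0.96, SE 0.28, adjusted p = 0.0267), and missed the threshold without Phase 0 replicate 2 (-0.73, adjusted p = 0.115), Phase 0 replicate 1, or Phase 1 replicate 1 or 3 (adjusted p values of 0.0613 to 0.0850).

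Without Phase 0 replicate 2, limma called 0 members between the phases, beside 18.1% of all genes, with 3 at an unadjusted p under 0.05. Without Control replicate 1 as well, 3 members passed, ATCG00470 and ATCG00480 lower and clpP higher. The median log2 fold change was -0.94 over the 75 members with all libraries. Over the 62 members it was -0.90 with all libraries and -0.01 without replicate 2. Of these 62, 8 were lower in every Phase 1 than in every Phase 0 library with all libraries (25.2% of all genes) and 8 without replicate 2 (28.3%). Higher were 0 (25%) and 7 (28.0%), the 7 including clpP, ATCG00790 and both named NADH dehydrogenase-like transcripts. ATCG00480, the locus that led the sum in Control replicate 2 and Phase 0 replicates 1 and 3, was among the 8 lower ones. Its log2 difference was -0.94 (adjusted p = 0.0534), and -0.63 without replicate 2 (adjusted p = 0.196).

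Nuclear genes that serve chloroplast gene expression were read in the same fit. Of 40 such genes in 4 lists, 0 passed the threshold in Phase 0 with limma (5 at an unadjusted p under 0.05), while in Phase 1 against control 7 were higher and 18 lower, beside 17.4% and 18.6% of all genes, and the median log2 fold change was -0.39 against 0.00 over all genes. Without Phase 0 replicate 2 the counts were 0, 7 and 17. Between the phases 6 were higher and 15 lower in Phase 1, beside 13.7% and 14.4% of all genes.

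Sigma factors, which direct the plastid-encoded polymerase to its promoters, rose in 3 of 6 cases in Phase 1 and fell in 0, beside 17.4% and 18.6% of all genes, the background also for the lists below. SIGE (AT5G24120), known in Arabidopsis for its response to blue light and stress, counted 674, 582 and 596 in control, 798, 776 and 1042 in Phase 0, and 6404, 4835 and 4439 in Phase 1. The Phase 1 values lay far above both other groups, 8.37-fold over control (log2 fold change 3.06, SE 0.16, adjusted p = 1.63e-06). SIGA (AT1G64860) rose 1.94-fold, from 5478 ± 155 to 10660 ± 787 (SD, n = 3, adjusted p = 1.01e-04), and SIGC (AT3G53920) 1.66-fold, from 1726 ± 261 to 2849 ± 204 (adjusted p = 0.00225). Of the 3 phage-type polymerases, MGP3 (AT1G68990), the mitochondrial enzyme, was higher (1.39-fold, adjusted p = 0.0301), and the plastid enzyme SCA3 was at 1479 ± 349 in control and 1646 ± 231 in Phase 1 (adjusted p = 0.504). The MGP3 call was lost without Control replicate 1 or 2 and without Phase 1 replicate 1 or 2, with array weights, and in the fit of the 2 groups alone.

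Transcripts of nuclear genes for proteins that join the plastid-encoded polymerase mostly fell. Of 14 such genes (PAP, pTAC and FLN proteins), 11 fell in Phase 1, 0 rose and 3 did not pass, at a median log2 fold change of -0.93. FLN1 (AT3G54090), a fructokinase-like subunit, fell 3.27-fold, from 1033 ± 114 to 319 ± 64.2 (SD, n = 3, adjusted p = 4.07e-05). PDE312 (AT3G48500), also called PTAC10, fell 2.68-fold, from 1692 ± 189 to 637 ± 131 (adjusted p = 1.25e-04), and FLN2 (AT1G69200) 2.64-fold, from 1199 ± 212 to 454 ± 85.9 (adjusted p = 2.65e-04). Of 17 genes for RNA stability, processing and decay, 3 rose, a share near that of all genes, and 7 fell. CP29 (AT3G53460), a ribonucleoprotein that binds many chloroplast transcripts, counted 18026, 14345 and 19009 in control, 16257, 14913 and 17404 in Phase 0, and 1846, 3978 and 2598 in Phase 1. That was a 6.36-fold fall with no overlap (adjusted p = 2.75e-05). emb2746 (AT5G63420), the chloroplast ribonuclease J, fell 2.62-fold (adjusted p = 9.98e-05), and AT2G37220, another ribonucleoprotein of the CP29 kind, 2.03-fold (adjusted p = 0.00120). The 3 that rose, named after their values were seen, were HCF152 (log2 fold change 0.95, adjusted p = 5.27e-04), HCF107 (0.66, adjusted p = 0.00303) and HCF173 (0.48, adjusted p = 0.00517), proteins that process, stabilise or promote translation of particular photosystem and cytochrome transcripts.

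Genes of the circadian clock moved with the Phase 1 libraries, and TOC1 with the Phase 0 libraries too. LHY, a morning gene, counted 95 to 100 in control, 56 to 117 in Phase 0 and 5034 to 7626 in Phase 1. CCA1, its close relative, counted 604 to 945, 708 to 756 and 8512 to 11906. TOC1, an evening gene, counted 937 to 1086, 2037 to 2096 and 191 to 288, and was past the threshold in Phase 0 against control as well (2.05-fold higher, adjusted p = 0.00754, and 0.0380 without Phase 0 replicate 2). The part of the hour of harvest in the Phase 0 and Phase 1 values of nuclear and chloroplast genes was not tested. Mesophyll and photosynthesis genes of the nucleus fell in 6 of 10 cases in Phase 1 and rose in 0. Of all genes, 18.6% were lower and 17.4% higher, the background also for the markers that follow. Guard cell markers gave 1 rise of 4 (KAT1, AT5G46240, 1.34-fold) and phloem markers 1 rise (APL, 1.43-fold) and 1 fall (SUC2, 1.70-fold) of 3, and their part in these values was not tested. The KAT1 call was lost in 6 of 23 alternatives, at adjusted p values of up to 0.0858, among them the fit of the 2 groups alone and the replicate block (adjusted p = 0.0525).

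**Figure D5:**
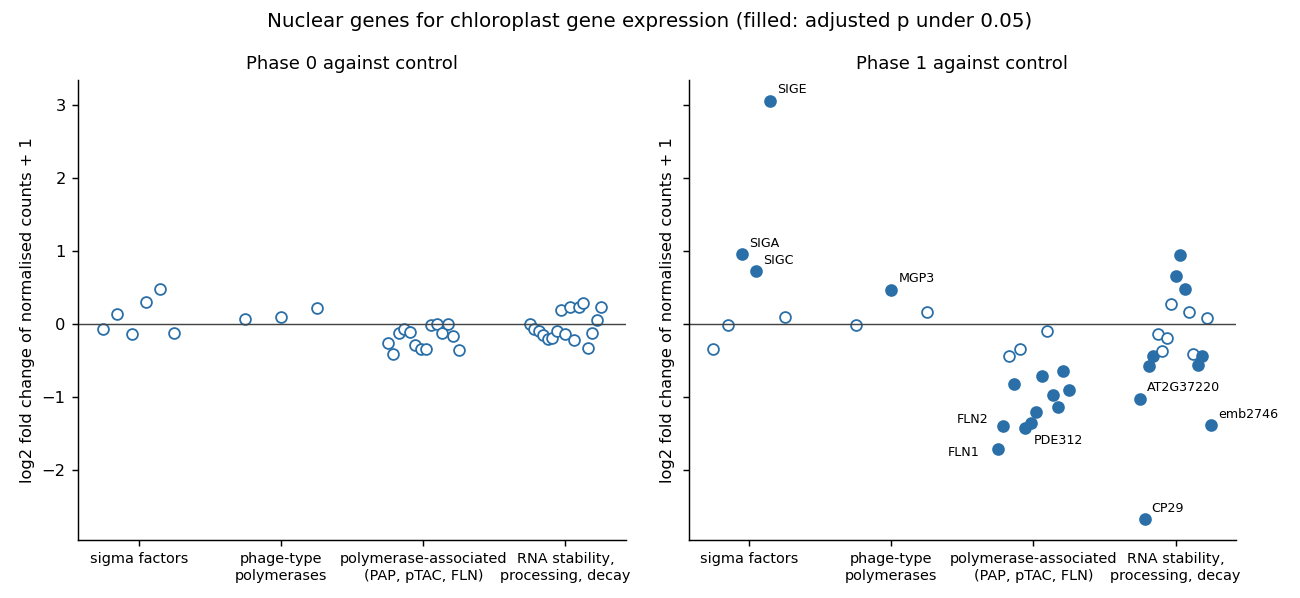
Log2 fold change of normalised counts + 1 for the 40 nuclear genes of 4 lists, in Phase 0 (left) and Phase 1 (right) against control, with filled points past an adjusted p of 0.05 (limma). In Phase 0 no point is filled, and in Phase 1 SIGE lies at 3.06, CP29 at -2.67 and the 11 filled polymerase-associated genes all below 0.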

How the data were processed

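Messenger RNA libraries of 9 leaf samples were made with an on-column DNase step and a stranded mRNA kit and sequenced as single-end reads, per the labels' protocols. The deposited table holds 1 score per locus and library, a normalised count that the authors rounded to whole numbers, as far as its values show. Without saying which step each served, the submitters' processing notes list the TAIR10 build, DESeq2 1.62, featureCounts 1.4.5-p1, Subread, STAR 2.4.0a and FastQC. Not given in the sources used here is how strand and reads with several matches were counted, or how the listed loci were chosen. No count test was used, since the scores are not raw counts.

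Values were fitted on the scale log2(value + 1) in R 4.3.3, using limma 3.58.1 and its trend option, for 9 libraries in 1 model of 3 groups, and genes with a mean of at least 10 were tested. Shares were compared with an exact permutation test in scipy 1.17.1. Tables were made with pandas 2.3.3 and numpy 2.4.6 in Python 3.11.15, and figures with matplotlib 3.10.9. The fit and the estimate of reads from the spacing of low values were tested on simulated data. The third replicates of Phase 0 and Phase 1 gave no clear spacing. The other 7 libraries gave 19833073 to 27863224 reads, of which 7252 to 13430 were chloroplast-encoded and 101500 in Phase 0 replicate 2.

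The members and gene lists were chosen with earlier results of these data known. Members named in the text passed the threshold, were among the 12 highest, had 1 of the 4 highest or lowest ratios in Phase 0 replicate 2, or carry a name, and 1 named locus is not reported here. The others that the text singles out (ATCG00180, ATCG00760, ATCG00780 and ATCG01020) were chosen after their values were seen. From each nuclear list the text names up to 3 genes past the threshold, those that changed most. Names came from RefSeq TAIR10.1, matched on locus (21054 of 21176 rows). As that assembly is not the one named for the table, no coordinates or sequences are given. Libraries were not treated as paired by replicate number. Correlations between same-numbered libraries of deviations from the group means ran from -0.25 to 0.25. With 3 libraries a group, these values cannot settle whether the libraries were paired. Alternatives were other pseudocounts, filters, scalings and models, leaving out each library in turn, and a block for the replicate number. The filter over 8 libraries and the scaling to the chloroplast sum without Phase 0 replicate 2 were chosen after seeing the data.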

Additional observations from a re-analysis of the deposited data

Results flagged for a closer look

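Members and nuclear genes whose levels differed between the phases, by the direct test of Phase 1 against Phase 0, are given here as log2 differences (limma, Benjamini-Hochberg adjustment, threshold 0.05). Among chloroplast loci these were ATCG00080 at -0.96 and ATCG00470 at -0.81, both lost without Phase 0 replicate 2, though ATCG00470 passed again when Control replicate 1 was left out too (adjusted p = 0.0398). Sigma factors were higher in Phase 1: SIGE by 2.58, SIGA by 1.10 and SIGC by 0.42, of which SIGC (AT3G53920) missed the threshold in 11 of 23 alternatives, among them when any library of either phase was left out and with the replicate block (adjusted p = 0.0682). The polymerase-associated genes FLN1, PDE312 and PTAC6 were lower, at -1.46, -1.14 and -1.13, as were the RNA-binding and decay genes CP29 at -2.60, emb2746 at -1.62 and AT2G37220 at -1.03. Of the photosynthesis genes, LHB1B1 stood at -1.81, CAB3 at -0.90 and LHCA1 at -0.49. LHB1B1 and CAB3 belong to a light-harvesting family with near-identical copies, so their values are uncertain. The LHCA1 (AT3G54890) call was lost in 11 of 23 alternatives, among them without Phase 0 replicate 2 (adjusted p = 0.101). The phloem gene SUC2 (AT1G22710) stood at -0.53, and its call was lost in 3 of 23, among them without Phase 0 replicate 2 (adjusted p = 0.0529).

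Data outside the main measurement gave values in Phase 0 replicate 2 above those of the control libraries. The nuclear rRNA locus AT3G41768 counted 71150, against at most 2275 in control, and mitochondrial loci held 0.115% of the library.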

How the results depend on the processing

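The numbers of members called (0 in Phase 0 and 3 in Phase 1 against control, 2 between phases) and of listed nuclear genes called (0, 25 and 21) were recomputed under 25 alternatives, and the shares under 9. With array weights, whose estimate stopped before converging, 20, 9 and 5 members were called, and 20 nuclear genes in Phase 0. Scaled to the chloroplast-encoded total, 0 members were called in each comparison, and 0 and 1 nuclear genes in Phase 1 against control and between phases. That scaling moved the median of all genes by -1.31, -0.15 and 1.16 on the log2 scale. Without Phase 0 replicate 2 it gave 0, 2 and 0 members and 0, 26 and 17 nuclear genes. Between phases ATCG00080 and ATCG00470 turned to 0.18 and 0.37 under it, each with adjusted p over the threshold (0.900 and 0.786). Scaling to the nuclear total moved that median by 0.10 and 0.14 against control, and 3 members were higher and 0 lower in Phase 1. A mean of at least 50 left 1 member between phases. With 1 library left out, counts of members ran from 0 to 1, 1 to 5 and 0 to 3, and of nuclear genes from 0 to 1, 22 to 27 and 16 to 23. Phase 0 counts were 1 without Control replicate 2 or Phase 1 replicate 2 (ATCG00760 and cemA), and Phase 1 counts against control 5 without Control replicate 3 and 1 without Control replicate 1 or Phase 1 replicate 2 or 3. With 1 library left out, differences in share ran from 0.00790 to 0.231, 0.00689 to 0.0101 and -0.223 to 0.000375 percentage points. With the replicate number as a block, 0, 3 and 2 members and 0, 25 and 20 nuclear genes were called, and no member call changed. Of 34 named pairs of gene and comparison, 23 kept their call in every alternative read for them, all of them nuclear. The alternatives were unlike, 24 or 25 for chloroplast pairs and 23 for nuclear pairs, so the 2 kinds are not compared. Nuclear pairs were not read singly under scaling to the chloroplast total, where the nuclear counts above fell to 0 and 1 with all libraries. The causes were not tested. Depth limits members near the floor of 3 reads.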
